A study of Mus musculus with 2 samples.

Results

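The mitochondrial ribosomal protein genes were taken as the protein-coding genes of GENCODE M21 whose symbol starts with Mrpl or Mrps followed by a number. The rule gave 78 genes, out of 22028 protein-coding genes and 55536 genes in all, and it used no measured value. Total RNA was sequenced from gastrocnemius, the large calf muscle, of male B6CASTF1/J mice, a C57BL/6J by CAST/EiJ hybrid, which 1 label field gives as 18 to 20 months old and another as of unknown age. For each library, 300 ng of RNA was used and ERCC spike-ins (artificial RNAs in known amounts) were added. The series holds 1 group with 2 libraries, which the labels number as biological replicates. Replicate 1 is from male number 3 and replicate 2 from male number 4, but both carry the same donor record. Whether the spread between them is a spread between animals is not given, so every p-value below compares these 2 libraries only and no comparison of conditions was possible.

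The mitochondrial ribosome is the ribosome of the mitochondrial matrix. It is built from proteins that are encoded in the nucleus, made in the cytosol and imported, and from ribosomal RNAs transcribed inside the organelle. Its only products are the 13 proteins encoded by mitochondrial DNA, all of them subunits of the respiratory chain and of ATP synthase, so muscle, with its high demand for ATP, depends on it. The large subunit forms peptide bonds and holds the exit tunnel, and the small subunit binds the mRNA and reads the codons. Some of its proteins have a counterpart in bacteria, and others were added in the mitochondrial lineage.

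By their known place in the structure, 51 of the 78 products belong to the large subunit and 26 to the small subunit, although 49 symbols are Mrpl and 29 are Mrps. The products of Mrps30 and Mrps18a sit in the large subunit in spite of their letter. Mrps36 was named as a small subunit protein, but its product is now known as a subunit of the oxoglutarate dehydrogenase complex of the citric acid cycle. Of the 77 ribosomal members, 46 were counted as having a bacterial counterpart and 31 as not having it. The 78 genes lie on 17 chromosomes.

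The libraries held 40795740 and 44919441 expected counts (reads assigned to genes, with ambiguous reads shared out). Skeletal muscle markers summed to 92077 and 70633 TPM (a transcript level corrected for transcript length and library size), as the tissue label has it. All 8 slow-fibre markers were called higher in replicate 2, with a summed level of 222.1 TPM in replicate 1 and 2366 TPM in replicate 2. Of the lists for 7 other cell types, none held a marker listed at 0 in both libraries, and their summed ratio of replicate 2 to replicate 1 ran from 0.963 for fibroblasts to 1.5 for endothelium. The endothelial, adipocyte and Schwann cell lists each had 2 markers called higher in replicate 2. The part of these differences in the values below was not tested. In bulk tissue, fewer cells of a type and less RNA per cell cannot be told apart.

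Almost every gene of the set was detected in gastrocnemius at a moderate level. With detection set at 1 TPM or more in both libraries, 77 of the 78 genes (98.7%) were detected, against 45.7% of all protein-coding genes. The exception was Mrpl23, at 3.22 TPM in replicate 1 and 0.780 TPM in replicate 2, which is described further on. The median member had a mean level of 24.2 TPM, and 8 in 10 members lay between 11 and 54.3 TPM, a 4.94-fold span. Summed over the members, the level was 2324 TPM in replicate 1 and 2494 TPM in replicate 2, or 2409 ± 120 TPM (SD, n = 2).

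The RNA of other ribosomal and respiratory genes was more abundant gene for gene. The 82 cytosolic ribosomal protein genes had a median of 184 TPM and a sum of 15839 ± 604 TPM (SD, n = 2), led by Rplp1, Rps27 and Rpl41. The 80 nuclear genes of oxidative phosphorylation had a median of 243 TPM and a sum of 23270 ± 3730 TPM (SD, n = 2), led by Atp5b, Cox8b and Atp5a1. The 13 protein genes of mitochondrial DNA, whose mRNAs the mitochondrial ribosome translates, summed to 76278 ± 20520 TPM (SD, n = 2). These sums differ from that of the members by far more than the spread between the libraries, but with 1 group no test was made of them.

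**Figure D1:**
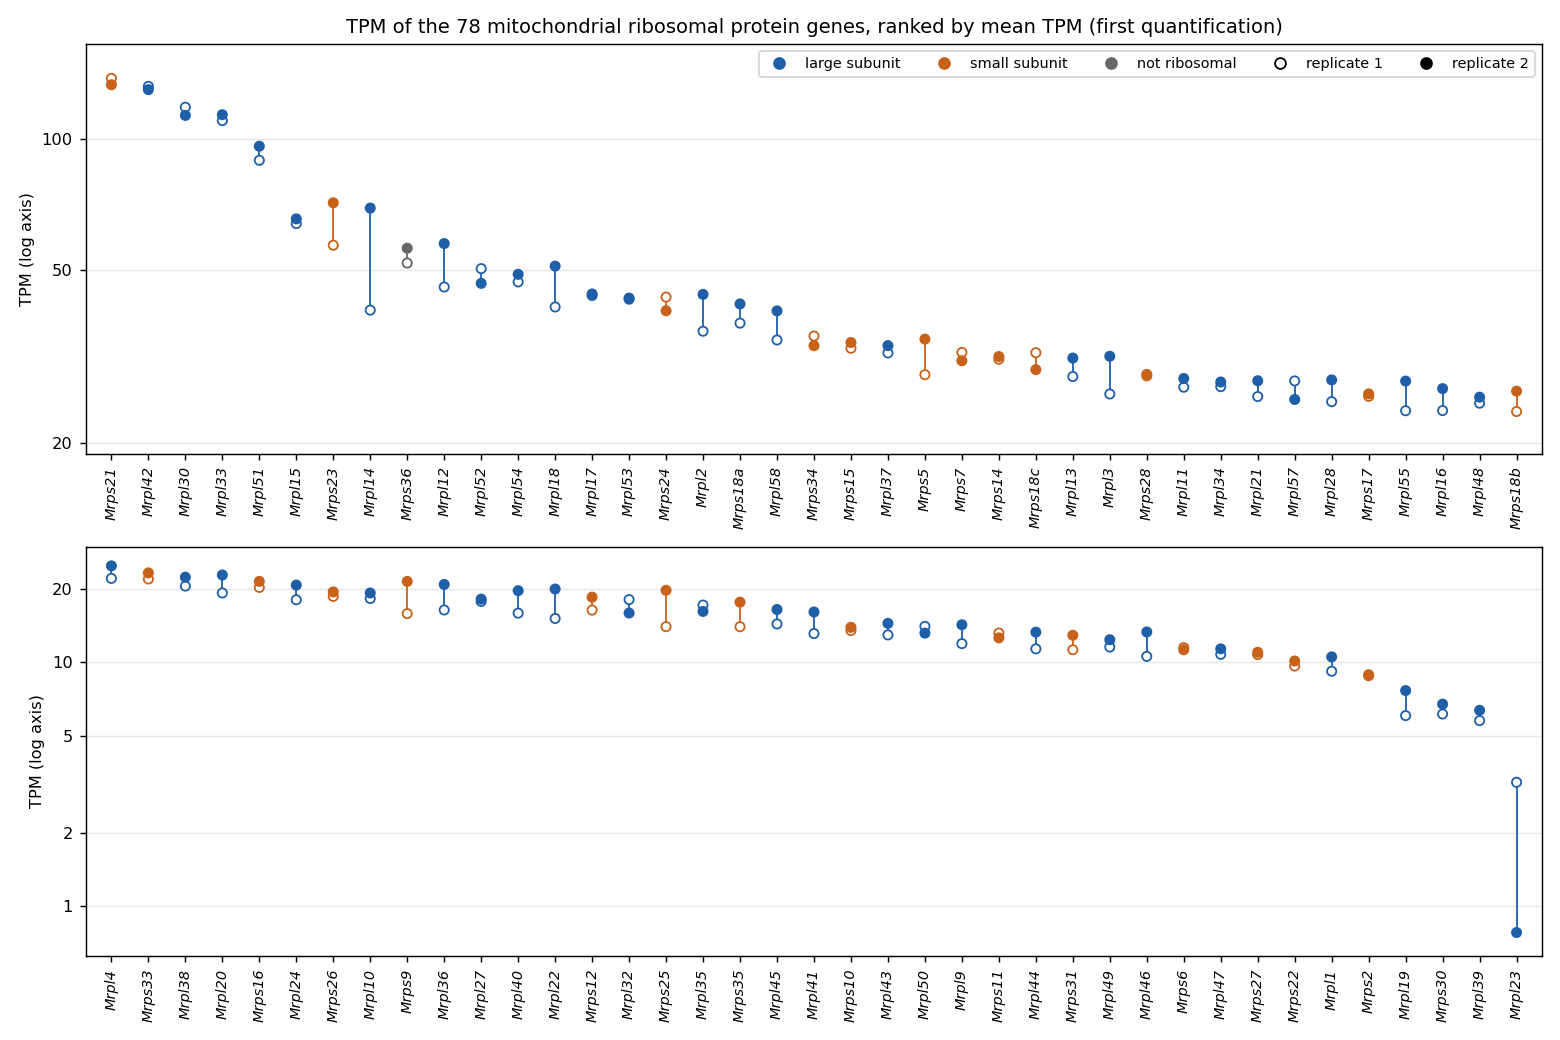
TPM of each of the 78 genes in replicate 1 (open circles) and replicate 2 (filled circles), on log axes that differ between the panels, ranked by mean TPM and coloured by subunit. The genes run in a smooth series from Mrps21 at 135.8 TPM to Mrpl39 at about 6 TPM, and Mrpl23 stands below it with the widest gap between the libraries.

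In the first of the 2 deposited quantifications described further on, the most abundant member was Mrps21 (chr3:95862634-95871519 in mm10, minus strand). Mrps21 encodes a small subunit protein with a bacterial counterpart and had 138.1 TPM in replicate 1 and 133.5 TPM in replicate 2. Mrpl42, a large subunit protein without a bacterial counterpart, followed at 132.4 and 130.1 TPM. Mrpl30 and Mrpl33, both large subunit proteins with bacterial counterparts, stood at 118.5 and 113.5 TPM and at 110.4 and 113.9 TPM. Mrpl51, of the mitochondria-specific large subunit proteins, had 89.4 and 96.4 TPM. These 5 genes held 25.3% of the members' TPM in replicate 1 and 23.6% in replicate 2. The next 3 were Mrpl15 at 64.0 and 65.6 TPM, Mrps23 at 57.0 and 71.4 TPM, and Mrpl14 at 40.4 and 69.4 TPM. In the second quantification Mrpl42, Mrpl33 and Mrpl30, with means of 182.3, 180.4 and 164.4 TPM, stood above Mrps21, with 163.8 TPM.

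At the low end, after Mrpl23, were Mrpl39 at 5.76 and 6.35 TPM, Mrps30 at 6.13 and 6.73 TPM, and Mrpl19 at 6.04 and 7.65 TPM, all encoding large subunit proteins. Mrps2, a small subunit protein with a bacterial counterpart, had 8.80 and 8.88 TPM. Mrpl1, which forms the mobile L1 stalk beside the exit site for tRNA, had 9.18 and 10.5 TPM. Mrps22 and Mrps27, small subunit proteins of the mitochondrial lineage, had 9.64 and 10.1 TPM and 10.7 and 10.98 TPM. Apart from Mrpl14 and Mrps23 among the 8 highest and Mrpl23 and Mrpl19 among the 8 lowest, the libraries gave close values, and the 5 highest members lay above the 8 lowest in both. Neighbours in the order were often not separable. Mrps21, at 135.8 ± 3.22 TPM, and Mrpl42, at 131.3 ± 1.60 TPM (SD, n = 2), differed by less than the sum of their SDs.

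The products enter the ribosome in single copies, apart from the stalk protein Mrpl12, but their RNAs did not stand at 1 level. Across the 78 genes the mean TPM fell with mean transcript length (Spearman rho = -0.63, Pearson r = -0.64 on log2 values), a description across genes that share the same 2 libraries. TPM is itself computed by dividing by transcript length, so these measures are not independent. The part of that division in the relation was not tested. TPM values of the same genes in the 2 libraries ranked alike (rho = 0.98, n = 78 genes). Large subunit members had a median of 25.1 TPM and small subunit members 21.7 TPM. The median was 25.7 TPM for members with a bacterial counterpart and 19.0 TPM for those without.

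In the first quantification, none of the 9 most abundant members was assigned here to a site such as the stalk, exit tunnel or decoding centre. Mrpl12, at rank 10, was the highest that was. In the second quantification Mrpl23, of the exit tunnel, had 106.9 TPM in replicate 1 and 92.8 TPM in replicate 2. Mrpl12 had 86.7 and 102.8 TPM there. The reads of Mrpl23 are described further on. In the stalk that recruits the translation GTPases, Mrpl12 had 45.7 TPM in replicate 1 and 57.5 TPM in replicate 2, Mrpl11 had 26.9 and 28.1 TPM, and Mrpl10 had 18.2 and 19.2 TPM. Mrpl12, present in several copies in each ribosome, was thus the highest of the 3 in both libraries. Around the exit tunnel, Mrpl24 had 18.0 and 20.7 TPM, Mrpl22 15.1 and 19.9 TPM, Mrpl45 14.3 and 16.4 TPM, and Mrpl47 10.8 and 11.3 TPM. Mrpl45 is the protein that ties the ribosome to the inner membrane.

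Mrps12, whose product lies at the decoding centre, had 16.3 TPM in replicate 1 and 18.5 TPM in replicate 2. Mrpl58, a peptidyl-tRNA hydrolase that became part of the large subunit, had 34.5 and 40.3 TPM. The 3 paralogues that descend from bacterial protein S18 were all detected. In the split by bacterial counterpart, Mrps18c was counted as having a counterpart, and Mrps18a and Mrps18b as not having it. Mrps18a had 37.7 and 41.8 TPM, Mrps18c had 32.3 and 29.5 TPM, and Mrps18b had 23.6 and 26.3 TPM. In this first quantification the order of Mrps18a and Mrps18c held in both libraries and Mrps18b was the lowest in both. In the second quantification Mrps18c had 61.7 and 53.5 TPM and Mrps18a 56.6 and 56.2 TPM, so Mrps18c was the higher in replicate 1. Mrps18b was again the lowest, at 41.0 and 44.1 TPM. Mrps36, the dehydrogenase subunit, had 51.9 and 56.1 TPM.

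Mrpl23 was the member whose value depended on how its reads were assigned. The gene (chr7:142532686-142540747, plus strand) encodes a large subunit protein at the exit tunnel. A processed pseudogene, Mrpl23-ps1 (chr2:74591330-74591909, minus strand), is an intronless copy of its mRNA. The transcript Mrpl23-201 and the pseudogene are identical over 540 consecutive bases, with 0 differences in the 438 bases of the coding sequence. The first 90 bases of the coding sequence are shown from the annotated transcripts of both, to show that these letters carry nothing that separates the loci. The capitals mark the 2 bases on each side of the exon junction in this stretch, which spans an intron at chr7:142533178-142535077 in the gene and lies unbroken at chr2:74591803-74591892 in the pseudogene.
Mrpl23: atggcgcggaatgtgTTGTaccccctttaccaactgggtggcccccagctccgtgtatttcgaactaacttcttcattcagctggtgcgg
Mrpl23-ps1: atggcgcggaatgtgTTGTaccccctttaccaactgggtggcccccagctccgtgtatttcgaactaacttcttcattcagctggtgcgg

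A read that crosses this junction therefore has the same sequence as one from the pseudogene, and the same holds at every one of the 4 junctions of the coding sequence. The first deposited quantification, derived from a file of alignments per the list of files with each sample, gave Mrpl23 75.2 expected counts in replicate 1 and 27.6 in replicate 2. It gave Mrpl23-ps1 932 and 988 counts, which is 92.5% and 97.3% of the pair. The deposited posterior SD of the Mrpl23 count was 47.9 and 37.1 counts, larger than the count itself in replicate 2. The second deposited quantification, derived from the read file per the same list, gave Mrpl23 1067 counts in each library and the pseudogene 0.

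On the TPM scale Mrpl23 was thus the lowest member in the first quantification, at 3.22 and 0.780 TPM, and stood at 106.9 and 92.8 TPM in the second. The sum of gene and pseudogene in the first was 64.6 and 60.2 TPM, above the median of the members. Which locus the reads came from was not tested. Of the other 77 members, 4 had a posterior SD above 5 counts, namely Mrps33, Mrpl48, Mrps5 and Mrps10. For Mrpl48, whose pseudogene Mrpl48-ps took 126 and 107 counts in the first quantification, the SD was 7.12 counts on 938 and 6.78 counts on 1047.

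**Figure D2:**
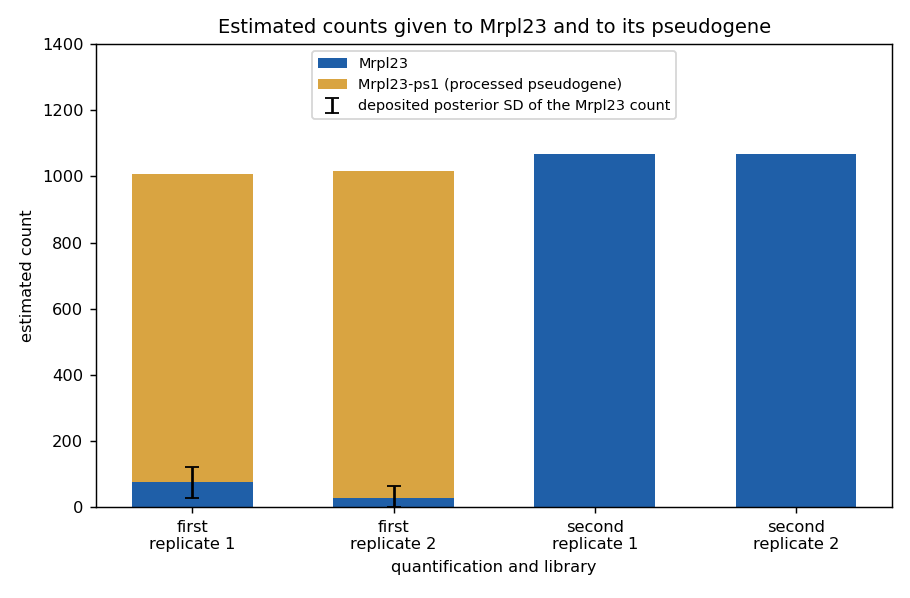
Estimated counts given to Mrpl23 (blue) and stacked on them those of Mrpl23-ps1 (yellow), in each library and quantification. The error bars are the deposited posterior SD of the Mrpl23 count, cut at 0 and given only with the first quantification. The pair adds up to 1007 and 1016 counts in the first and 1067 and 1067 in the second, while the split is nearly opposite.

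Outside Mrpl23 the quantifications ranked the members much alike, with a Spearman rho of 0.93 over 77 genes and 0.87 with Mrpl23 included. After both were rescaled to the nuclear protein-coding genes, Mrpl17 was the other member that differed by 2-fold or more. Mrpl17, a large subunit protein near the tunnel exit, had 43.7 and 44.0 TPM in the first and 31.3 and 31.8 TPM in the second, 0.480 times its first level after rescaling. The lead transcript of Mrpl17 was the protein-coding Mrpl17-204 in the first and Mrpl17-203, annotated as a target of nonsense-mediated decay, in the second. Just inside that limit was Mrpl27, which was 1.998-fold higher in the second.

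Between the libraries, the members differed little. Each gene's rounded counts were compared by a 2-sided exact binomial test with TMM library sizes, and calls required both a fold of at least 2 and, after Benjamini-Hochberg adjustment over 14959 genes, a p below 0.05. Of the 78 members 1 was called, against 922 (6.16%) of all genes tested. It was Mrpl23, lower in replicate 2 (0.329 times, 95% exact counting interval 0.205 to 0.514, adjusted p = 1.05e-06, exact binomial test). The interval and the test cover counting error only and not the sharing of reads with the pseudogene. With both loci added together the value was 0.888 times (0.814 to 0.970), and 0 members were called.

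By the adjusted p alone, with no fold limit, 16 of 78 members (20.5%) differed between the libraries, against 35.4% of all genes tested. Of these, 13 of the 78 were higher in replicate 2, while 18.6% of all genes tested were. The other 3, Mrpl23, Mrpl32 and Mrpl30, were higher in replicate 1. Neither share of the members exceeded the background of these libraries.

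Mrpl14 differed most among the members higher in replicate 2. Its product, a large subunit protein with a bacterial counterpart, lies at the face that meets the small subunit. Mrpl14 (chr17:45686322-45698495, plus strand) had 609 counts and 40.4 TPM in replicate 1 and 1158 counts and 69.4 TPM in replicate 2. The fold was 1.67 (95% exact counting interval 1.52 to 1.85, adjusted p = 1.29e-24, exact binomial test), and its log2 ratio of scaled counts was 0.74, or 0.71 in the second quantification. It overlaps Tmem63b on the opposite strand, which had 26.8 and 29.8 TPM. Whether reads were counted by strand is not given in the sources used here.

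Smaller differences in the same direction passed the adjusted p in other members. Mrps9, a small subunit protein with a bacterial counterpart, had 15.8 TPM in replicate 1 and 21.4 TPM in replicate 2 (1.30-fold on counts, adjusted p = 1.44e-06, exact binomial test). Mrpl22, Mrps35, Mrpl36, Mrps23 and Mrpl12 were 1.26-fold, 1.249-fold, 1.23-fold, 1.22-fold and 1.22-fold higher in replicate 2. In the other direction Mrpl32, a large subunit protein that the m-AAA protease must cut before it is built in, had 18.1 and 15.9 TPM and was 0.826 times as high in replicate 2 (adjusted p = 0.0162, exact binomial test). Mrpl52, Mrpl57 and Mrps18c, at 0.877, 0.881 and 0.884 times, did not pass. In all, 21 members were more than 1.1-fold higher in replicate 2 and 9 more than 1.1-fold higher in replicate 1, and only Mrpl14 and Mrpl23 passed 1.5-fold.

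On the log2 scale of TPM + 0.5, the members' median ratio of replicate 2 to replicate 1 was 0.10, with 62 members above 0 and 16 below (50 above 0 on TMM-scaled counts). The median of all genes tested was 0.05, with 57.8% above 0. In the second quantification the members' median was 0.021, with 40 of 78 above 0. Large subunit members had a median of 0.13 and small subunit members of 0.04, or of 0.08 and -0.01 on TMM-scaled counts. The central protuberance is the crest of the large subunit. The members assigned to it here are Mrpl18, Mrpl27, Mrpl38, Mrpl40, Mrpl46, Mrpl48 and Mrpl58, a list that may not be complete. All 7 lay above 0 with a median of 0.22 on the TPM scale, as did 57.8% of all genes tested, but Mrpl27 and Mrpl48 were below 0 on TMM-scaled counts. Of the 7, Mrpl18 and Mrpl46 passed the adjusted p as higher in replicate 2, against 18.6% of all genes tested. All 3 stalk members also lay above 0, with a median of 0.07 and 1 passing the adjusted p. The 5 members assigned to the exit tunnel had a median of 0.19, with 4 above 0 and 3 passing the adjusted p, 2 of them higher in replicate 2. In either direction 35.4% of all genes tested passed. By TPM in the second quantification, Mrpl27, Mrpl38 and Mrpl48 of the central protuberance were lower in replicate 2 and its other members higher. Of the stalk, Mrpl10 and Mrpl11 were lower there and Mrpl12 higher. At the exit tunnel, Mrpl23 and Mrpl24 were lower and Mrpl22, Mrpl45 and Mrpl47 higher.

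The genes that surround the mitochondrial ribosome give the context of these ratios. Of 79 tested nuclear oxidative phosphorylation genes, 72 passed the adjusted p alone as higher in replicate 2 and 1 as lower. The median log2 ratio of the list was 0.31 (0.20 in the second quantification). Cox4i2 was the 1 gene called at 2-fold, against 6.16% of all genes tested. By the adjusted p alone 18.6% of all genes tested were higher in replicate 2. All 13 mitochondrially encoded protein genes passed it as higher in replicate 2, with a median of 0.58, and none reached 2-fold. That count is of the first quantification. In the second, 10 of the 13 were higher in replicate 2, mt-Nd3 (1517 and 15.5 TPM) and mt-Nd4l (45.3 and 12.7 TPM) were lower, and mt-Atp8 was listed at 0 in both libraries. In the first they were led by mt-Co1, which had 12971 TPM in replicate 1 and 19428 TPM in replicate 2, followed by mt-Cytb and mt-Nd1. In the second mt-Atp6, at 20479 and 27879 TPM, stood beside mt-Co1, at 20212 and 28254 TPM. The mitochondrial ribosomal RNAs, mt-Rnr1 of the small subunit and mt-Rnr2 of the large subunit, took 2.29% and 5.62% of the annotated counts in replicate 1 and 3.38% and 7.76% in replicate 2. The label of the spike-ins names ribo-reduced libraries, and how far that step also removed these RNAs was not tested. Cytosolic ribosomal protein genes had a median of 0.07 (-0.02 in the second quantification), with 23 of 80 higher and 9 lower by the adjusted p alone.

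**Figure D3:**
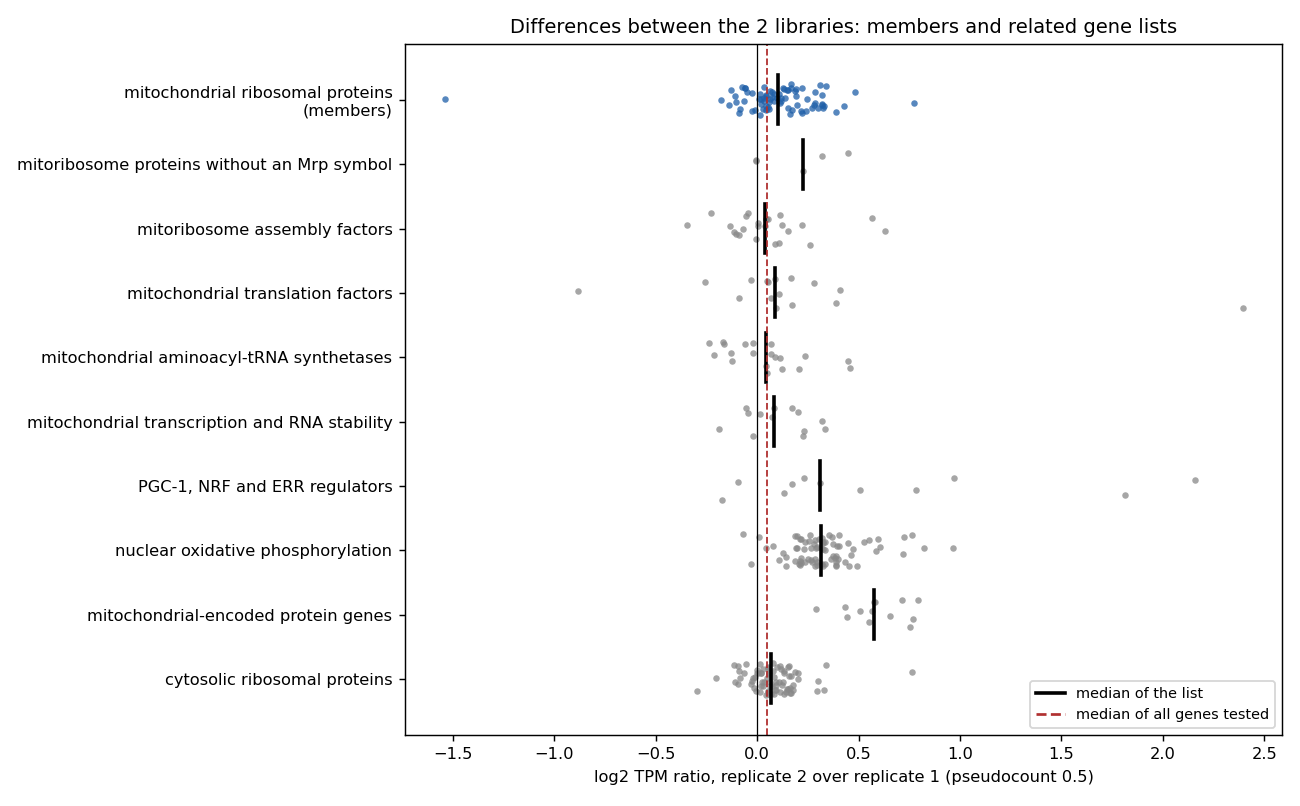
Log2 ratio of TPM + 0.5 in replicate 2 over replicate 1 for each tested gene of the 78 members (blue) and of the related lists (grey), with the median of each list as a black bar and that of all genes tested (0.05) as a dashed line. The members lie near the cytosolic ribosomal proteins, and the nuclear oxidative phosphorylation and mitochondrially encoded genes lie further to the right.

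Of the proteins that complete the ribosome but carry other symbols, all 5 were detected. Chchd1 had 55.8 and 55.7 TPM, Aurkaip1 29.7 and 34.8 TPM, and Dap3, the GTP-binding protein of the small subunit, 27.5 and 27.3 TPM. None was called at 2-fold, and Gadd45gip1 and Ptcd3 passed the adjusted p alone as higher in replicate 2. The 25 assembly factors, which modify the rRNA and fit the proteins, stood lower than the members, with a median of 6.32 TPM. They were led by Malsu1 at 19.5 and 20.1 TPM, Dhx30 at 14.6 and 13.7 TPM and Rbfa at 14.4 and 13.7 TPM. Of the 25, 0 were called and 2 passed the adjusted p alone, against 6.16% and 35.4% of all genes tested.

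Of 16 mitochondrial translation factors, the elongation factors Tufm (46.7 and 52.4 TPM) and Gfm1 (43.9 and 45.5 TPM) were among the 3 highest. The other, Mss51, was the 1 called gene of that list, at 32.4 TPM in replicate 1 and 172 TPM in replicate 2 (5.13-fold). Its yeast relative activates translation of a cytochrome oxidase mRNA, and the mouse gene is expressed mainly in skeletal muscle. Mss51 was listed here by that relative, and whether the mouse product acts in mitochondrial translation was not tested. The 20 genes for mitochondrial aminoacyl-tRNA synthesis had a median of 6.03 TPM, led by Iars2, Fars2 and Lars2, with 0 called and 6 passing the adjusted p alone, 2 higher and 4 lower in replicate 2. The 13 genes of mitochondrial transcription and RNA stability were led by Slirp, Grsf1 and Hsd17b10. None was called and 3 passed the adjusted p alone, 2 higher and 1 lower in replicate 2. Of the 16 translation factors, 3 passed it, all higher in replicate 2. Beside these 3 lists, 6.16% of all genes tested were called and 35.4% passed the adjusted p alone.

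Among 11 regulators of nuclear genes for mitochondria (the PGC-1, NRF and ERR genes, Yy1 and Myc), 3 were called, all higher in replicate 2. Over all genes tested the share was 6.16%. By the adjusted p alone 7 of the 11 were higher in replicate 2 and none lower, against 18.6% of all genes tested. Esrrg had 2.90 and 14.7 TPM (4.27-fold), Esrrb 0.830 and 4.17 TPM (4.83-fold) and Myc 0.890 and 2.22 TPM (2.43-fold). Their most abundant genes, Esrra at 31.6 and 39.3 TPM, Ppargc1a at 15.7 and 22.4 TPM and Yy1 at 14.5 and 16.4 TPM, did not reach 2-fold. Esrra and Ppargc1a passed the adjusted p alone, at 1.22-fold and 1.585-fold, and Yy1 did not pass. Nrf1 had 4.74 and 4.15 TPM and Gabpa, the ETS-domain subunit of NRF-2, had 10.7 and 12.7 TPM.

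The members' RNA was spread over annotated transcripts in an uneven way. The annotation holds 343 transcripts for the 78 genes, with a median of 4 each and 1 to 11 per gene. In the first transcript table, protein-coding transcripts held 77.0% of the members' TPM in replicate 1 and 77.6% in replicate 2, against 88.3% in both libraries for the other nuclear protein-coding genes. In the second table the shares were 72.0% and 70.6%, against 85.5% and 85.0%. The transcripts annotated as nonsense-mediated decay targets held 6.13% and 5.88% of the members' TPM in the first table, and those with a retained intron 7.45% and 7.56%.

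A minority of members had most of their TPM on other kinds of transcript. The median member had 97.4% of its TPM on protein-coding transcripts in the first table, and 94.2% was the median of the other detected genes. Under 50% were 18 members (23.1%), against 688 of 9981 other detected genes (6.89%). These shares are means of the 2 libraries, and the 18 include Mrpl23, at 88.2% in replicate 1 and 0% in replicate 2. Mrpl23 missed the detection limit that the other genes had to pass. In the second table, 19 members (24.4%) and 9.32% of the other genes were under 50%. A transcript of another type led in 15 members in the first table and in 18 in the second, and the lead transcript was the same in both tables for 57 members.

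**Figure D4:**
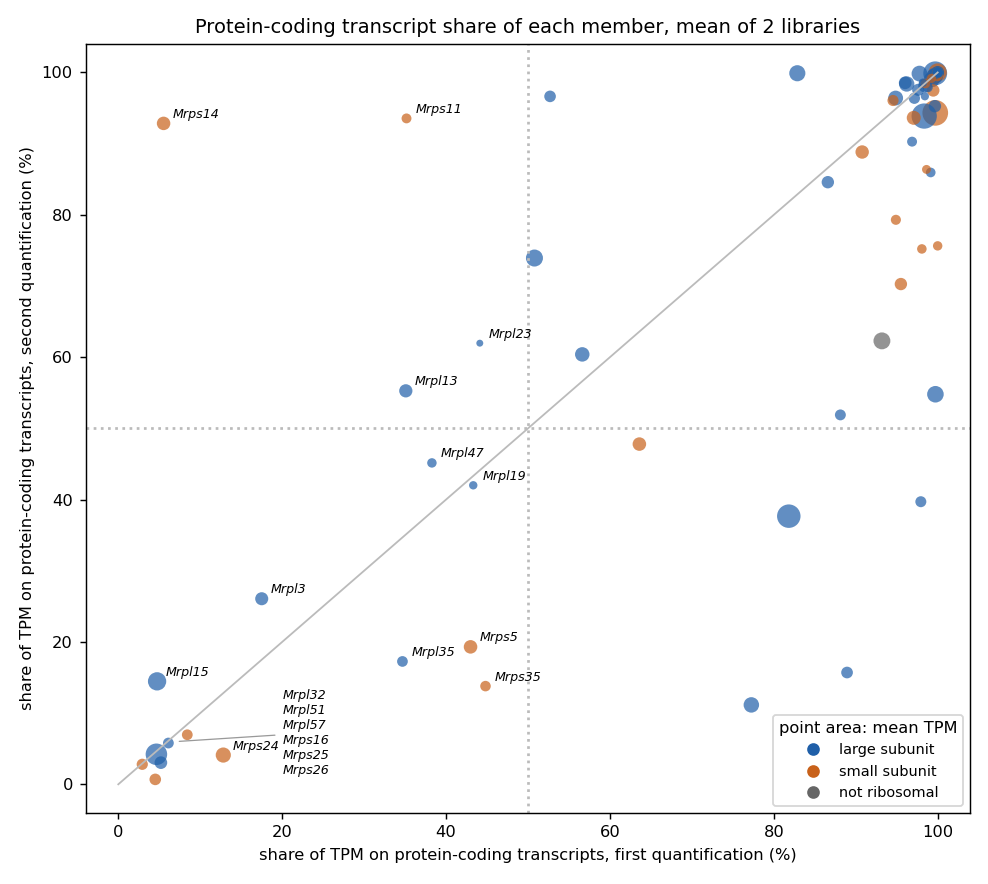
Percent of each member's TPM on transcripts annotated as protein-coding, in the first transcript table (x axis) and the second (y axis), as means of 2 libraries, with point area by mean TPM and dotted lines at 50%. Most of the 78 genes sit at the upper right, the group at the lower left is low in both tables, and genes such as Mrps14 and Mrps11 are low in the first table only.

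The 8 members with the lowest coding share were Mrps26, Mrps16, Mrpl51, Mrpl15, Mrpl57, Mrps14, Mrpl32 and Mrps25. Mrps26 had 3.17% and 2.68% of its TPM on its protein-coding transcript, and the retained-intron transcript Mrps26-201 held 96.8% and 97.3%. Mrps26-201 contains 100% of the coding bases of the protein-coding transcript. For Mrpl57 the retained-intron transcript Mrpl57-202 held 94.9% and 94.7%, and it also contains 100% of those coding bases. For these 2 genes the annotated type of the lead transcript did not mean that coding bases were missing from it.

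Mrps16-202, without an annotated reading frame, held 96.3% and 94.7% of the TPM of Mrps16 and contains 97.5% of the coding bases. Mrpl51, among the 5 most abundant members, had 4.84% and 4.46% of its TPM on Mrpl51-201, and Mrpl51-202 with 69.1% and 66.3% contains 79.4% of the coding bases. Mrpl15-202, with 57.3% and 58.5% of the TPM of Mrpl15, contains 59.3% of the 504 coding bases of Mrpl15-205. Mrpl15-205 has the highest TPM of the 3 protein-coding transcripts of the gene, and only it was compared. Mrpl32 had 80.4% and 83.0% on Mrpl32-201, a nonsense-mediated decay transcript that holds 96.6% of the coding bases. These shares came from the same reads in regions that transcripts have in common, so they are estimates.

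Mrps14 showed how far the tables could part. In the first, 94.6% and 94.3% of its TPM lay on the nonsense-mediated decay transcript Mrps14-201, and 5.36% and 5.69% on protein-coding transcripts. Mrps14-201 holds 100% of the coding bases of Mrps14-203, the protein-coding transcript of highest TPM in that table. In the second table protein-coding transcripts held 94.0% and 91.7%. Mrps25 had a retained-intron transcript, Mrps25-201, at 9.26 TPM in replicate 1 and 14.3 TPM in replicate 2. As a whole Mrps25 had 13.98 and 19.7 TPM, while its scaled counts were 1.14-fold higher in replicate 2, with an adjusted p of 0.0986 in the exact binomial test.

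The members' promoters were read from RefSeq (GRCm38.p6, from 250 bases before to 50 bases after the start), where 69 of the 78 symbols matched. A script searched both strands for letters known as cores of factors that act on mitochondrial and housekeeping genes. CCGGAAG, the core bound by ETS factors such as NRF-2, was found in 36.2% of the members' promoters, in 20.4% of those of the 7901 other detected protein-coding genes, and in 8.86% of all 32851 promoters. CGCANGCG, the core of the NRF1 site, was found in 29.0%, 19.4% and 8.21%. AAGATGGC, the core of the YY1 site, was found in 17.4%, 5.33% and 2.75%. A match describes letters and is not evidence that a factor binds.

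Other motifs stood differently. The GC box GGGCGG was found in 49.3% of the members' promoters and in 67.8% of those of other detected genes. CCAAT, the core of the NF-Y site, was found in 39.1% and 38.5%, TATAAA in 5.80% and 6.92%, and AAGGTCA, the core of the ERR site, in 5.80% and 2.87%. At least 1 of the ETS, NRF1 and YY1 letters stood in 43 of 69 members (62.3%), and 2 or more kinds in 13 (18.8%), against 38.6% and 6.16% of other detected genes. Of those 13, the 3 with the highest mean TPM were Mrps21 and Mrpl17, with ETS and NRF1 letters, and Mrps18a, with ETS and YY1 letters. Mrps27 had all 3.

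In Mrpl22 and Mrpl43 the ETS and NRF1 letters lie together in a stretch of 60 bases that holds no annotated exon, and these stretches are shown with the motifs in capitals. For Mrpl22, at chr11:58171599-58171658 on the plus strand (GRCm38.p6, the build of mm10), the stretch runs from 65 to 6 bases before the RefSeq start, and the ETS letters come first. For Mrpl43, at chr19:45006477-45006536 on the minus strand, it runs from 94 to 35 bases before the start, and the NRF1 letters come first.
Mrpl22: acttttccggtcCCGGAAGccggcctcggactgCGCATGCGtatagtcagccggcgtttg
Mrpl43: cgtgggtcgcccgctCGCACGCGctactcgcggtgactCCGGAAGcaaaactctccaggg

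Mrpl22 stood at 17.5 TPM and Mrpl43 at 13.7 TPM on average, both under the median of the members. Mrps21 and Mrpl17, which hold the same 2 kinds of letters in their promoters, stood above it.

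Many members start close to a neighbour that runs the other way. A protein-coding gene on the opposite strand started within 1000 bases upstream, head to head, for 18 of the 78 members (23.1%). The same was true of 10.8% of the 9986 other detected nuclear protein-coding genes and of 6.72% of all nuclear protein-coding genes. The closest pair was Mrpl54 and Apba3, 26 bases apart, with Mrpl54 at 46.9 and 48.9 TPM and Apba3 at 35.6 and 44.4 TPM. Mrps12 starts 172 bases from Sars2, the mitochondrial seryl-tRNA synthetase, which had 5.42 and 5.18 TPM.

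Partners of a pair were often far apart in level. Mrpl30, among the 5 highest members, lies 66 bases from Mitd1, which had 0.750 and 0.610 TPM. Mrpl49, at 11.5 and 12.4 TPM, lies 59 bases from Fau, which encodes a cytosolic ribosomal protein and had 175 and 211 TPM. Mrpl32, lower in replicate 2, lies 75 bases from Psma2, a proteasome subunit, at 22.6 TPM in both libraries.

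In addition, 42 members overlap another annotated gene, and for 20 of them that gene was detected, in 17 cases on the opposite strand. Mrps11 and Mrpl46, both members, overlap each other on opposite strands. Mrpl47 overlaps Ndufb5 (187 and 274 TPM) and Mrpl36 overlaps Ndufs6 (164 and 191 TPM), respiratory complex I genes with far more RNA than the member beside them. The part of such overlaps in the members' values was not tested.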

How the data were processed

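Total RNA-seq of 2 gastrocnemius libraries was analysed from gene and transcript tables on mm10 with GENCODE M21, per the labels. The deposited expected counts and TPM of the first quantification, and the deposited estimated counts and TPM of the second, were used as the authors made them. The deposited posterior standard deviation of each count, a signal never below 0, was used to mark shared reads, per the file headers. The aligner is not given in the sources used here, nor is either quantifier. Expected counts were rounded for tests.

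Scaling used edgeR 4.0.16 (TMM) in R 4.3.3, and the exact binomial test SciPy 1.17.1 in Python 3.11.15, with a mean count of 10 as the lower limit. DESeq2 1.42.0 size factors, spike-in scaling, edgeR's exact test, other filters, pseudocounts and fold limits, and leaving out a library were alternatives. The test was checked on simulated data that held counting error only, so the check does not cover any other spread between the libraries. Ratios of TPM used a pseudocount of 0.5, which understates changes of low genes. Totals of 40795740 and 44919441 counts gave members 27.6 to 2634 counts, and counting intervals (95%, exact) cover counting error only.

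The members and lists were chosen with earlier results of these data known. Named members are those called, the 8 highest and 8 lowest by TPM, the 5 highest and 5 lowest by ratio with a mean count of at least 50, those that differed 2-fold between quantifications, the 8 of lowest protein-coding share under 50%, and members of defined sites. Of other lists, the 3 highest and all called genes are named. Other genes and members named were chosen after their values were seen. Of the list symbols, Prorp was not found in the annotation. tRNA entries, with 1 and 2 counts, were left out.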

Additional observations from a re-analysis of the deposited data

How the results depend on the processing

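No paired analysis was possible because the series holds 1 group. The count of 1 member called did not depend on DESeq2 size factors, spike-in scaling or leaving out the filter on low counts, each of which gave 1. It was 0 with a mean count of at least 100, 0 in the second quantification, 0 with edgeR's exact test (1 member at an unadjusted p below 0.05), whose dispersion comes from the same difference between 2 single libraries and so gives no replicate check, and 0 with Mrpl23 and its pseudogene added together, an alternative chosen after seeing the data. It was 2 at 1.5-fold and 16 with no fold limit, which by construction take in more genes. The members' median log2 ratio of 0.10 was 0.0732 with a pseudocount of 5, 0.0715 with TMM-scaled counts, 0.0670 with DESeq2 size factors, 0.021 in the second quantification, 0.11 with a mean count of at least 100 and 0.11 without Mrpl23 (added later). With spike-in scaling it was 0.30, where the median of all genes tested moved to 0.23. In the second quantification the summed level was 3707 TPM, the median 37.1 TPM, and the medians of large and small subunit members 37.4 and 33.8 TPM. With nuclear protein-coding genes as the denominator the sum was 5382 TPM and the median 54.1 TPM. The protein-coding share of 77.3% was 71.3% in the second table and 76.1% without the 5 most abundant members (added later). Leaving out 1 library gave 77 to 78 members detected, sums of 2324 to 2494 TPM, medians of 22.8 to 24.99 TPM, large subunit medians of 23.7 to 25.2 TPM, small subunit medians of 21.1 to 22.3 TPM and shares of 77.0 to 77.6%. The medians of the related lists fell below 0 in 7 of 27 alternative values, none of them for the oxidative phosphorylation, mitochondrially encoded or regulator lists. The cause of these shifts was not tested. With 2 libraries of 1 group, a spread between animals could not be estimated.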
